A study of Caenorhabditis elegans with 9 samples.

Results

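The genes described here are the nuclear-encoded genes of oxidative phosphorylation in *C. elegans*. They were chosen by symbol: protein-coding genes whose RefSeq symbol is nuo-, ndub-, ndua-, ndus-, nduf-, sdha-, sdhb-, sdhd-, ucr-, cox-, atp-, asb- or asg- followed by a number, together with *gas-1*, *isp-1*, *mev-1*, *cyc-1* and *hpo-18*. This gave 66 genes of the 45495 genes in the table, of which 19959 are protein-coding. Whole-body RNA of wild-type adult hermaphrodites grown at 20°C was sequenced, and the sample labels list 9 libraries in 3 groups of 3: young stage ADF, middle stage ADF and control. ADF is alternate day fasting, given for 7 days to worms of the stage named, and the labels list M9 as the treatment of all groups. Only young stage ADF replicate 1 was analysed, and the remaining libraries of the 3 groups were not analysed here. The values therefore carry no replicate error, and no effect of fasting on any gene was measured.

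Oxidative phosphorylation takes place in the inner mitochondrial membrane. Complexes I to IV pass electrons from NADH and succinate to oxygen through ubiquinone and cytochrome c and, apart from complex II, pump protons, and complex V, the ATP synthase, uses the proton gradient to make ATP. Most of the subunits are encoded in the nucleus and the rest by mitochondrial DNA, so both genomes have to supply the parts of each enzyme they share. In *C. elegans*, lowering several of these subunits during larval life, such as *nuo-2*, *cyc-1*, *cox-5B* (also called *cco-1*) and *atp-3*, is known to lengthen life, whereas mutants of *gas-1* and *mev-1* are known for sensitivity to oxygen and a short life.

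The data are FPKM, the fragments on a gene scaled to the length of its transcript and to the size of the library. Of the 66 genes, 60 had at least 1 FPKM, as did 56.9% of all protein-coding genes. A further gene lay between 0 and 1, and 5 were listed at 0. The median of the 66 genes was 224 FPKM, against 1.93 FPKM for all protein-coding genes and 16.9 FPKM for the 11351 protein-coding genes with at least 1 FPKM. Ranked among those 11351 genes, the 60 members had a median percentile of 94.9, 42 of them lay above the 90th percentile and 57 above the median. Together the 66 genes held 1.99% of the summed FPKM and 1.60% of the fragments. In RNA from whole worms, a low value of a gene can reflect fewer cells that use it or less RNA per cell, and these cannot be told apart.

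**Figure D1:**
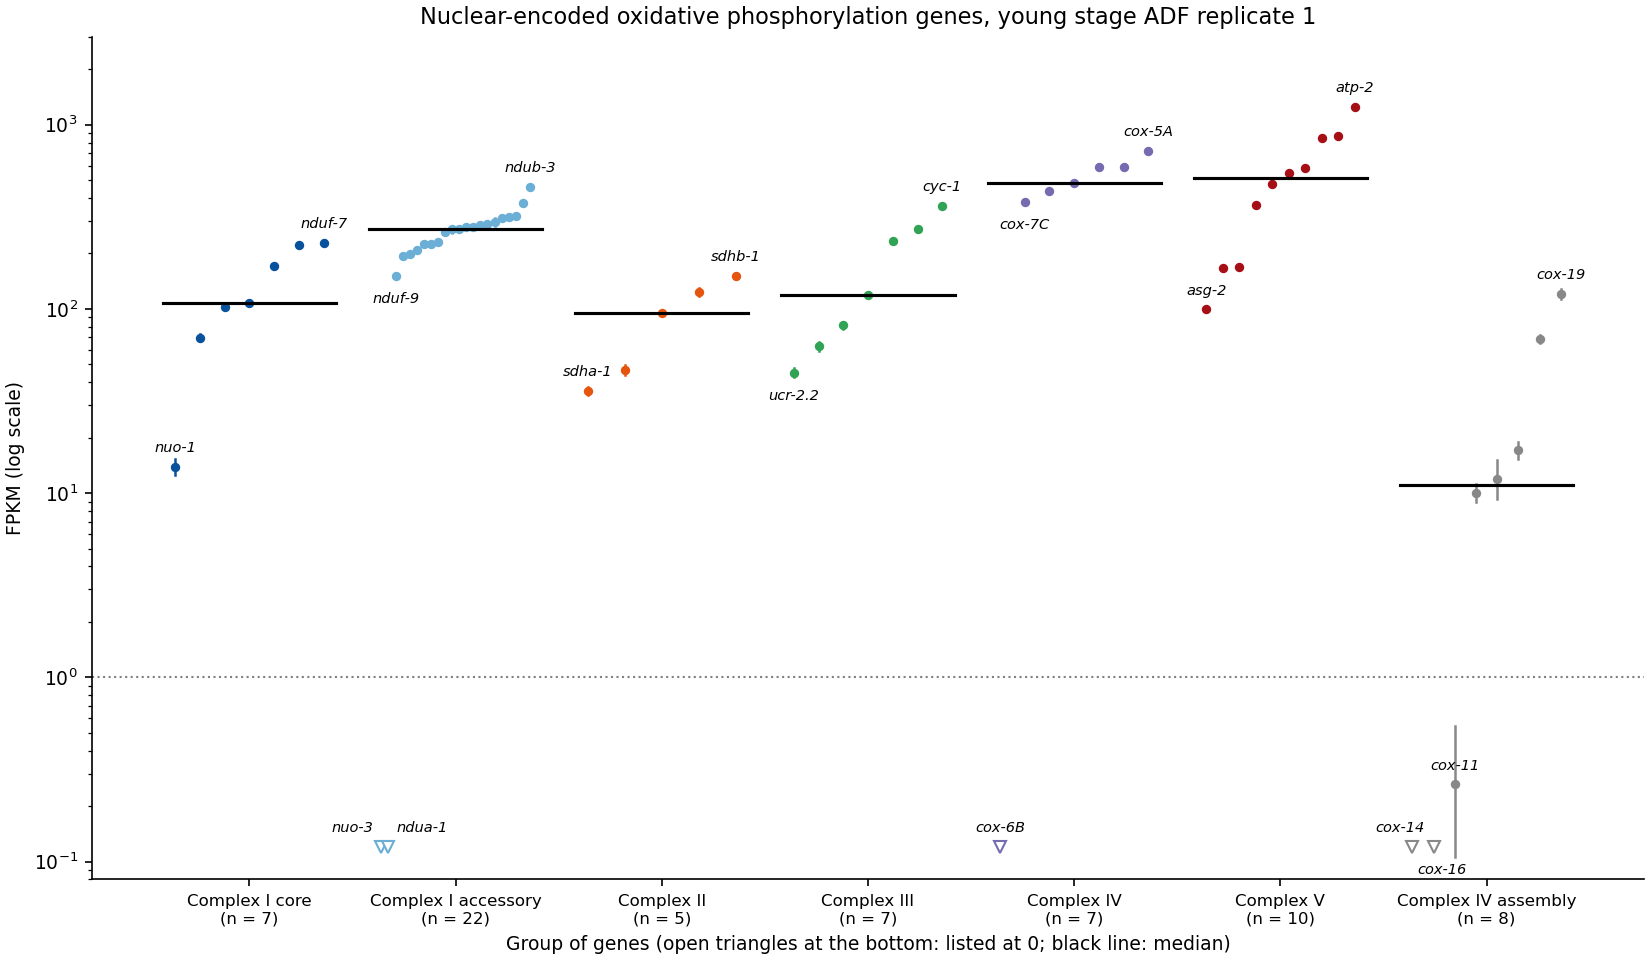
FPKM (log axis) of the 66 genes in young stage ADF replicate 1, by complex, with the core and accessory subunits of complex I apart and the assembly factors of complex IV at the right. Points are genes, vertical lines are 95% counting intervals, mostly shorter than the points, black lines are medians, the dotted line is 1 FPKM and open triangles at the bottom are genes listed at 0. Subunits of complexes IV and V have the highest medians, at 480 and 512 FPKM, and the assembly factors the lowest, at 11 FPKM.

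The deposited values could be traced to whole fragments. With a library total of 18205113 fragments and the exon lengths of the Ensembl annotation, 77.0% of the 6469 protein-coding genes with the fewest fragments came within 0.02 of a whole number, against 3.92% when lengths were shuffled between genes. The library total was itself fitted to make these values whole, and it was not refitted for the shuffled lengths. The 61 members above 0 rested on 7 to 44130 fragments each and on 300012 in all. Exact 95% Clopper-Pearson intervals on these fragments are given beside the values. They cover counting error in this library only, and PCR copies are not independent molecules.

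The length behind each value was taken as the one nearest the annotation that gave whole fragments, and it matters for several members. It equalled the annotated merged exon length for 15 of the 61 members and lay within 10% of it for 49, but it was more than 1.2 times as long for 10 and shorter by the same factor for 1, *nduf-5*. Among all protein-coding genes above 0, the length equalled the annotated one for 55.3% and was more than 1.2 times as long for 4.91%. The largest ratios belonged to *ucr-11*, with 1070 bases against 281 annotated, and *asg-2*, with 1598 against 497. They were followed by *atp-4*, with 976 against 542, *isp-1*, with 1542 against 986, and *cox-11*, with 1460 against 945. For 5 members, among them *ucr-11*, *asg-2*, *atp-4* and *mev-1*, the length was longer than the whole RefSeq gene, introns included. This was so for 3.60% of all protein-coding genes above 0. A longer length gives a lower FPKM for the same fragments, so values at the annotated length are given below where these genes are described. For genes whose length differs by more than 1.2 times, other lengths with other fragment numbers are also possible. Their fragments and their values at the annotated length rest on taking the nearest one. Among the complex I genes with such a difference, *ndua-2* had 319 FPKM as deposited and would have 388 FPKM, *ndub-8* had 208 FPKM and would have 287 FPKM, and *nduf-5* had 295 FPKM and would have 223 FPKM. The gene models that the authors used are not stated.

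**Figure D2:**
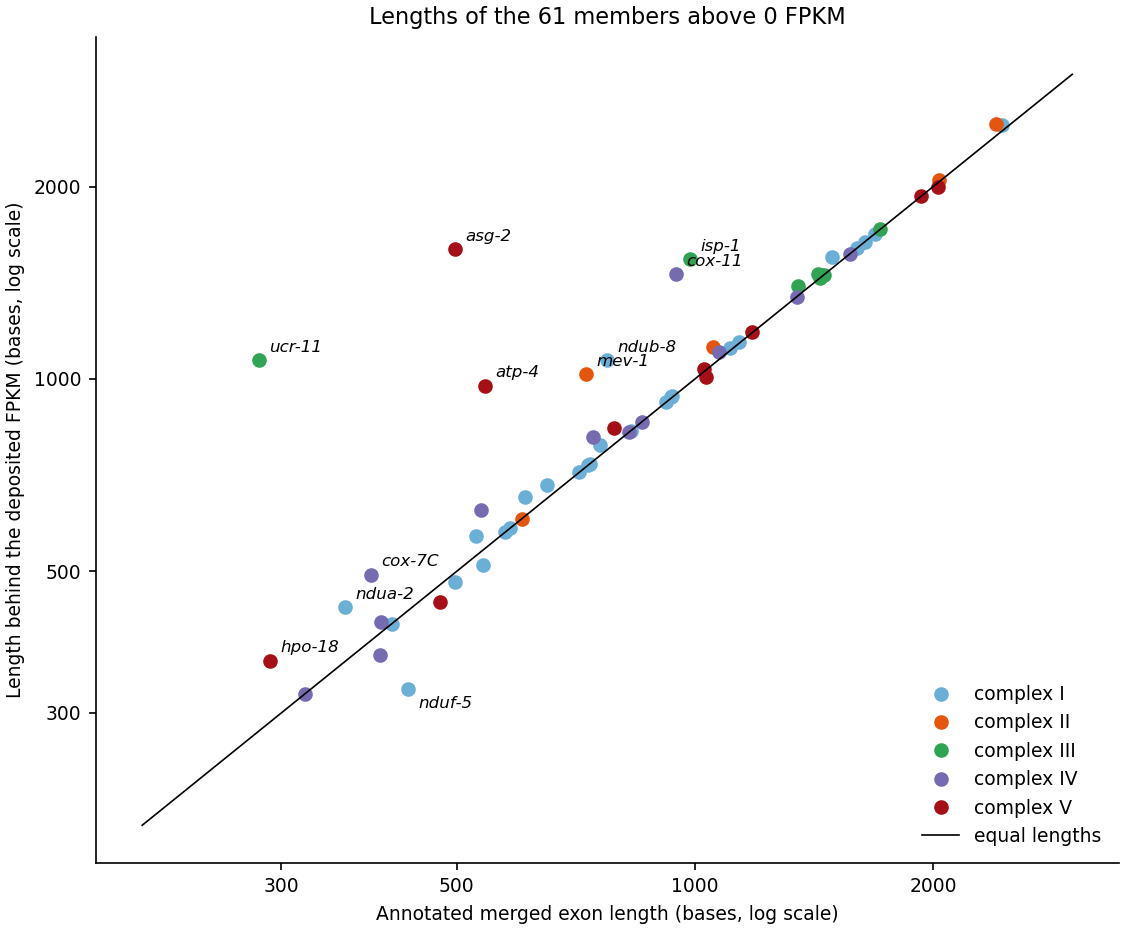
Length behind the deposited FPKM against the annotated merged exon length (bases, both axes logarithmic) for the 61 members above 0 FPKM. Points are genes coloured by complex and the line marks equal lengths. Most genes lie on or near the line, and 11 are named whose lengths differ by more than 1.2 times, with *ucr-11* and *asg-2* farthest above it.

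Complex I, the NADH dehydrogenase, had 29 genes by the rule, with a median of 229 FPKM. Among the genes of the rule, the accessory subunits, which surround the electron path, were even in level. Leaving out *ndua-1* and *nuo-3*, which were listed at 0, the other 20 lay between 151 and 459 FPKM. The median over all 22 was 270 FPKM. *ndub-3* was highest at 459 FPKM (95% interval 444 to 475) and *nduf-9* lowest at 151 FPKM (95% interval 146 to 155). *nuo-6*, whose point mutant is long-lived, had 312 FPKM and *nuo-4* had 195 FPKM. The core subunits, which carry the flavin, the iron-sulfur clusters and the quinone site, were lower and less even. The 7 core genes had a median of 108 FPKM.

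Among the core genes, *nduf-7* had 229 FPKM (95% interval 222 to 236) and *ndus-8*, another iron-sulfur subunit, had 223 FPKM (95% interval 216 to 230), so that these did not differ beyond the counting error. *nuo-2* followed at 170 FPKM, then *nduf-2.2* at 108 FPKM (95% interval 104 to 112). *nuo-5*, the largest subunit, had 102 FPKM (95% interval 99.3 to 105). The intervals of *nduf-2.2* and *nuo-5* overlapped, which does not settle whether they differ beyond the counting error. At the annotated lengths these genes would have 112 and 104 FPKM. *gas-1*, which encodes the same quinone-site subunit as *nduf-2.2*, had 69.8 FPKM (95% interval 66.8 to 72.8).

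The core gene *nuo-1* stood far below the others. It encodes the flavin-binding subunit that takes electrons from NADH, lies on chromosome II from 11097837 to 11100146 of WBcel235, and had 13.9 FPKM (95% interval 12.5 to 15.3) on 405 fragments. This was a percentile of 46.3 among protein-coding genes with at least 1 FPKM, whereas *gas-1*, the next core gene, was at 79.0. Its value gives whole fragments at the annotated 1605 bases, and 6 of these bases belong to another gene on the same strand. By contrast *nduv-2*, a flavoprotein partner of *nuo-1* outside the symbol rule, had 303 FPKM.

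Complex II, the succinate dehydrogenase, is the enzyme that links the tricarboxylic acid cycle to the chain. Its 5 genes were the lowest of the complexes by median, at 94.7 FPKM. The iron-sulfur gene *sdhb-1* was highest at 151 FPKM (95% interval 146 to 157), followed by the membrane anchor *sdhd-1* at 124 FPKM (95% interval 117 to 130). The flavoprotein is encoded by *sdha-2*, at 94.7 FPKM, and *sdha-1*, the lowest of the complex, at 35.8 FPKM (95% interval 34.1 to 37.6). *mev-1*, which encodes the cytochrome b anchor, had 46.6 FPKM (95% interval 43.5 to 49.8) on 863 fragments. At the annotated length it would have 65.1 FPKM, still below *sdhb-1* and *sdhd-1*.

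Complex III passes electrons from ubiquinol to cytochrome c, and its 7 genes had a median of 118 FPKM. The catalytic genes were highest. *cyc-1*, encoding cytochrome c1, had 363 FPKM (95% interval 356 to 370), and *isp-1*, encoding the Rieske iron-sulfur protein whose mutant is long-lived, had 272 FPKM (95% interval 266 to 278). The core protein gene *ucr-1* had 233 FPKM (95% interval 228 to 238). The other core protein has a gene family, in which *ucr-2.3* had 118 FPKM, *ucr-2.1* 81.5 FPKM and *ucr-2.2* 45.1 FPKM. The small subunit gene *ucr-11* had 62.8 FPKM (95% interval 59.3 to 66.4).

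This order depends on the lengths. With the annotated lengths *isp-1* would have 425 FPKM and stand above *cyc-1*, at 364 FPKM, and *ucr-11* would have 239 FPKM, close to *ucr-1*, at 233 FPKM. The median of complex III would then be 233 FPKM.

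Complex IV, the cytochrome c oxidase, had even levels apart from *cox-6B*, which was listed at 0. Its catalytic center is made of subunits from mitochondrial DNA, and the nuclear genes encode the subunits around it. Of 7 nuclear subunit genes, the other 6 lay between 381 and 724 FPKM, a range of 1.90-fold. *cox-5A* was highest at 724 FPKM (95% interval 710 to 738). *cox-6A*, at 591 FPKM (95% interval 577 to 605), and *cox-5B*, at 586 FPKM (95% interval 574 to 599), did not differ beyond the counting error. At the annotated lengths they would have 687 and 586 FPKM, so that tie rests on the deposited lengths. *cox-6C* had 480 FPKM, *cox-4* 437 FPKM and *cox-7C* 381 FPKM, or 484 FPKM at the annotated length. The median was 480 FPKM with *cox-6B* and 533 FPKM without it.

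The assembly factors of complex IV share the cox- symbol but are not part of the finished enzyme, and their levels were of another order. Their median was 11 FPKM over 8 genes. *cox-19* had 121 FPKM (95% interval 113 to 129). *cox-15*, an enzyme of heme A synthesis, had 68.5 FPKM (95% interval 65.3 to 71.9), while *cox-10*, which acts in the same pathway, had 10.03 FPKM (95% interval 8.90 to 11.3). The insertion factor *cox-18* had 17.1 FPKM and the copper chaperone *cox-17* 12 FPKM, with intervals of 15.4 to 19 and 9.34 to 15.1. *cox-11*, which inserts copper, had 0.263 FPKM (95% interval 0.106 to 0.543) on 7 fragments, or 0.407 FPKM at the annotated length, and *cox-14* and *cox-16* were listed at 0. Every assembly factor was below every complex IV subunit other than *cox-6B*.

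Complex V had a median of 512 FPKM over 10 genes. This was above complex IV with *cox-6B* counted at 0, and below the 533 FPKM of complex IV without that gene. With the genes of 1 subunit summed, the median of complex V was 578 FPKM, above complex IV either way. The catalytic head is built from several copies each of the alpha and the beta subunit. *atp-2*, the beta subunit, had 1251 FPKM (95% interval 1240 to 1263) on 44130 fragments, the highest of all 66 genes. *atp-1*, the alpha subunit, had 843 FPKM (95% interval 834 to 853) and was below the stalk gene *atp-5*, at 864 FPKM (95% interval 849 to 879). These single-gene intervals overlapped, which does not settle whether the genes differ beyond the counting error. At the annotated lengths *atp-1* would have 830 FPKM and *atp-5* 916 FPKM. *hpo-18*, the epsilon subunit of the central stalk, had 580 FPKM (95% interval 562 to 599), or 724 FPKM at the annotated length, and *atp-3*, the subunit OSCP that joins the head to the stalk, had 547 FPKM (95% interval 537 to 558). The genes of subunits b and g came next, with *asg-1* at 477 FPKM, *asb-1* at 365 FPKM, *asb-2* at 170 FPKM and *asg-2* at 99.4 FPKM. The stalk gene *atp-4* had 167 FPKM (95% interval 161 to 173), or 301 FPKM at the annotated length.

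Within each complex the spread between genes was far larger than the counting error. The SD of log2(FPKM + 1) over genes was 0.89 for complex II, 1.14 for complex III and 1.19 for complex V. It was 2.19 for complex I and 3.43 for complex IV with the genes listed at 0, and 0.96 and 0.34 without them.

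The 5 genes listed at 0 were *nuo-3*, *ndua-1*, *cox-6B*, *cox-14* and *cox-16*. Of these, *nuo-3* and *ndua-1* encode accessory subunits of complex I and *cox-6B* a subunit of complex IV. Genes that every cell uses are among them, and a listed 0 can also be a failed estimate, so these genes were not read as unexpressed. Their positions in the annotation of WBcel235 fall into 2 kinds. For *cox-14*, on chromosome III from 10218942 to 10222825, 75.7% of the exon bases are shared with another gene on the same strand, Y70G10A.4. For *nuo-3*, on chromosome IV from 14796421 to 14797462, 72.6% are shared with a neighbor, and for *cox-16*, on chromosome V from 5535057 to 5536243, 61.6% are shared with C24G6.8.

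These 3 were the only members with at least 50% of their exon bases in another gene on the same strand. Their partners were as low, with 0 for Y70G10A.4 and C24G6.8 and 0.135 FPKM on 2 fragments for the partner of *nuo-3*. Among all protein-coding genes placed in the annotation, 150 of the 177 genes with such an overlap were listed at 0, or 84.7%, against 15.7% of the 19617 others. The other kind shared little or nothing. *ndua-1*, on chromosome V from 20850877 to 20851897, shares no exon base with another gene, and *cox-6B*, on chromosome III from 2786202 to 2786754, shares 8 with *nduc-2*, which had 173 FPKM. The part of the overlap in the values at 0 was not tested.

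Several subunits are encoded by more than 1 gene. When the FPKM of such genes were summed, the range over subunits was narrower than that over genes in complexes II, III and V, and unchanged in complex I. In complexes II, III and V the lowest gene (*sdha-1*, *ucr-2.2* and *asg-2*) is itself part of a sum and the highest is not. The narrower range therefore follows largely from the summing itself. In complex III the *ucr-2* genes summed to 245 FPKM, beside 233 FPKM for *ucr-1*, the partner core protein, with the other subunits between 62.8 FPKM (*ucr-11*) and 363 FPKM (*cyc-1*). In complex V the *asb* genes summed to 534 FPKM and the *asg* genes to 576 FPKM, beside 547 FPKM for *atp-3* and 580 FPKM for *hpo-18*. The other subunits of complex V were not close to these, with 1251 FPKM for *atp-2*, 864 FPKM for *atp-5*, 843 FPKM for *atp-1* and 167 FPKM for *atp-4*. At the annotated lengths the closer values spread more, with 539 FPKM for the *asb* genes, 769 FPKM for the *asg* genes, 534 FPKM for *atp-3* and 724 FPKM for *hpo-18*. In complex II the *sdha* genes summed to 131 FPKM, between *sdhd-1* at 124 FPKM and *sdhb-1* at 151 FPKM, while *mev-1* had 46.6 FPKM. In complex I the genes *gas-1* and *nduf-2.2* summed to 177 FPKM, with the other core genes between 13.9 FPKM (*nuo-1*) and 229 FPKM (*nduf-7*).

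The range from the lowest to the highest value was 4.23-fold over genes and 3.25-fold over subunits in complex II, 8.05-fold and 5.78-fold in complex III, and 12.6-fold and 7.49-fold in complex V. At the annotated lengths, the range over subunits was 2.48-fold, 1.83-fold and 4.18-fold in these complexes. In complex I, leaving out *ndua-1* and *nuo-3*, which were listed at 0, it was 33.1-fold from *nuo-1* to *ndub-3*, over genes and over subunits.

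**Figure D3:**
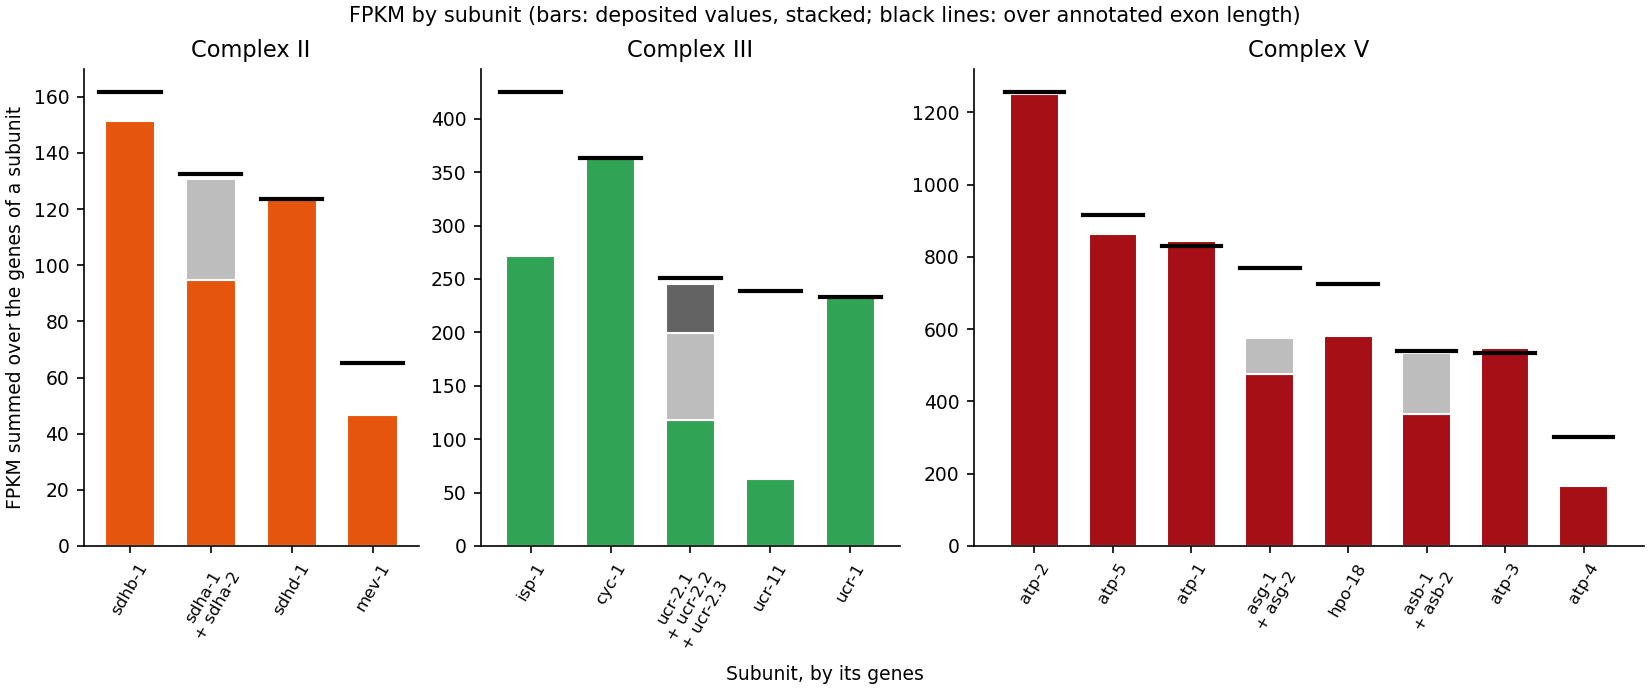
FPKM by subunit in complexes II, III and V, with bars for the deposited values and the genes of 1 subunit stacked in a bar (the highest gene colored, the others grey), and black lines for the sum over annotated exon lengths. In complex V the *asb* and *asg* bars reach 534 and 576 FPKM, between *atp-4* at 167 FPKM and *atp-2* at 1251 FPKM, and the lines of *ucr-11*, *isp-1* and *atp-4* lie well above their bars.

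In each of these 5 families, 1 gene is autosomal and was higher, and the others are X-linked and were lower. *asb-1*, known as a germline form of subunit b, had 365 FPKM (95% interval 356 to 373), against 170 FPKM (95% interval 164 to 175) for *asb-2*, a ratio of 2.15 (95% counting interval 2.06 to 2.24). For the flavoprotein of complex II, *sdha-2* was 2.64 times *sdha-1* (95% counting interval 2.49 to 2.81), and *nduf-2.2* was 1.54 times *gas-1* (95% counting interval 1.46 to 1.63). *ucr-2.3* was 1.45 times *ucr-2.1* (95% counting interval 1.37 to 1.54) and 2.62 times *ucr-2.2* (95% counting interval 2.45 to 2.81). *asg-1* was 4.80 times *asg-2* (95% counting interval 4.57 to 5.03), but this ratio was 1.404 (95% counting interval 1.34 to 1.47) at the annotated lengths, where *asg-2* would have 320 FPKM. With the fragments as recovered, the autosomal gene was the higher one with either length in every family.

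These 6 genes, *asb-2*, *asg-2*, *sdha-1*, *ucr-2.1*, *ucr-2.2* and *gas-1*, were all the members on chromosome X, and each shares its subunit with an autosomal member. They lay between 35.8 and 170 FPKM, with a median of 75.6 FPKM. The autosomal members with at least 1 FPKM had a median of 266 FPKM. Over all protein-coding genes with at least 1 FPKM, the median was 8.21 FPKM for the 1664 genes on chromosome X and 21.0 FPKM for the 9687 others, so lower levels on chromosome X were not particular to these families. Germline markers were abundant in the library, with the 4 genes of the list between 57.9 FPKM (*glp-1*) and 220 FPKM (*pgl-1*), and the 3 oocyte and embryo markers lay between 256 and 471 FPKM. Their part in the ratios was not tested. Near-identical stretches of such genes can share fragments, and how these were assigned is not stated.

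**Figure D4:**
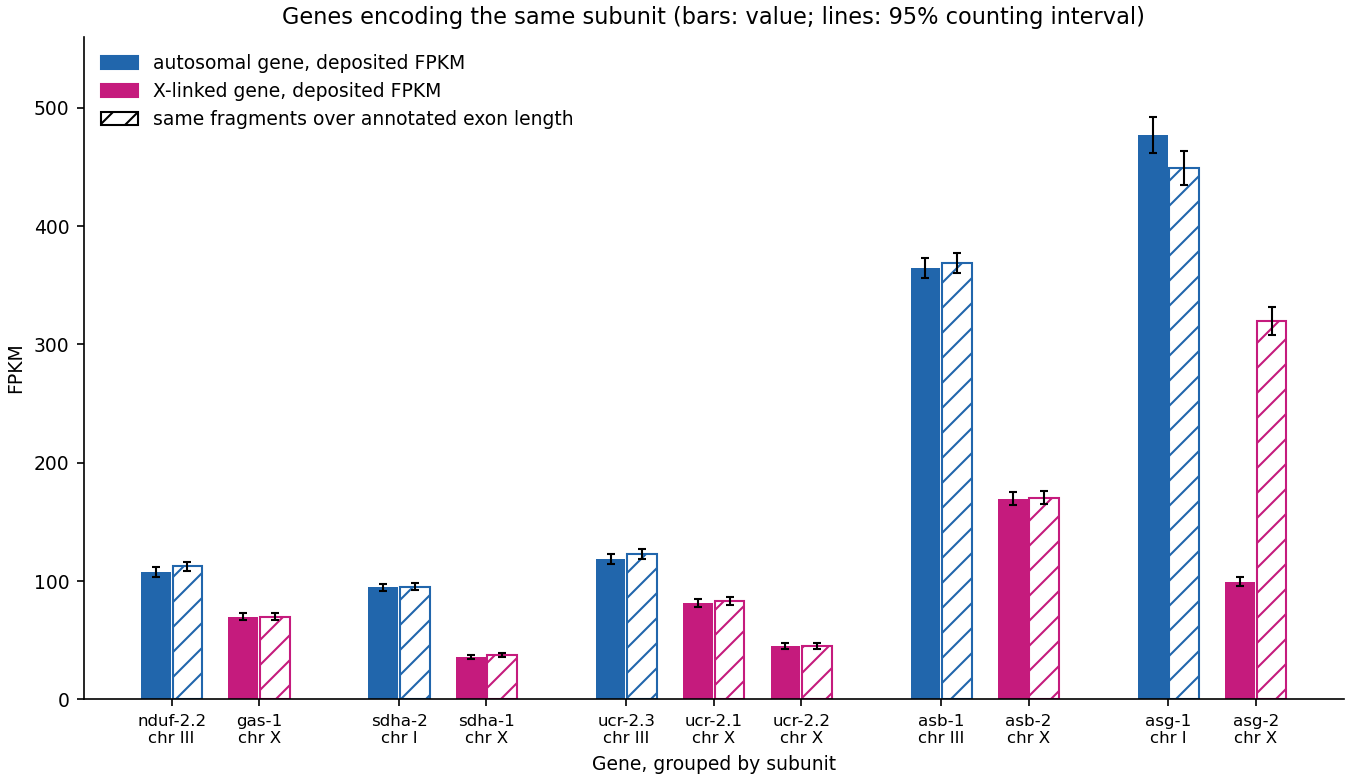
FPKM of the genes that encode the same subunit, with the autosomal gene at the left of each group and its X-linked partners beside it. Filled bars are deposited values, hatched bars are the same fragments over the annotated exon length, and lines are 95% counting intervals. The autosomal bar is the higher one in every group, and *asg-2* is the gene whose bar changes most with the length.

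Genes that work with these complexes were read from fixed lists. Cytochrome c, which carries electrons between complexes III and IV, was almost wholly *cyc-2.1*, at 1032 FPKM, with 2.63 FPKM for *cyc-2.2* (95% interval 1.67 to 3.95). The ADP/ATP carrier *ant-1.1* had 2780 FPKM, above all 66 members, while *ant-1.2*, *ant-1.3* and *ant-1.4* had 0.730, 3.70 and 0.686 FPKM. The ATP synthase inhibitor factor *mai-2* had 904 FPKM and *mai-1* was listed at 0. All 14 genes of the tricarboxylic acid cycle exceeded 1 FPKM, with a range of 49.8 (*idhb-1*) to 381 FPKM (*cts-1*). Their median was 137 FPKM, between the medians over genes of complexes III and I. With the genes of 1 subunit summed, those complexes had medians of 245 and 230 FPKM, both above it.

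The 71 mitochondrial ribosomal protein genes had a median of 71.7 FPKM, below that of each complex, and 67 exceeded 1 FPKM. The ubiquinone synthesis genes had a median of 39.1 FPKM, with 6 of 8 above 1 FPKM and *coq-2* and *coq-8* listed at 0. Of 19 glycolysis genes, 16 exceeded 1 FPKM, and their median was 80.2 FPKM. In the mitochondrial stress response list the chaperone *hsp-6* had 382 FPKM and *hsp-60* 142 FPKM, the regulator *atfs-1* had 75.7 FPKM, and the list's median over 6 genes was 108 FPKM. A list of 4 further complex I genes had a median of 71.7 FPKM. It holds the subunit gene *nduv-2*, *lpd-5*, at 93.6 FPKM, and the assembly factors *nuaf-1* and *nuaf-3*, but not *nduc-2*. The complex IV assembly genes *sco-1* and *sft-1*, also outside the symbol rule, had 34.1 and 9.26 FPKM. These levels describe 1 library and give no change with fasting.

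**Figure D5:**
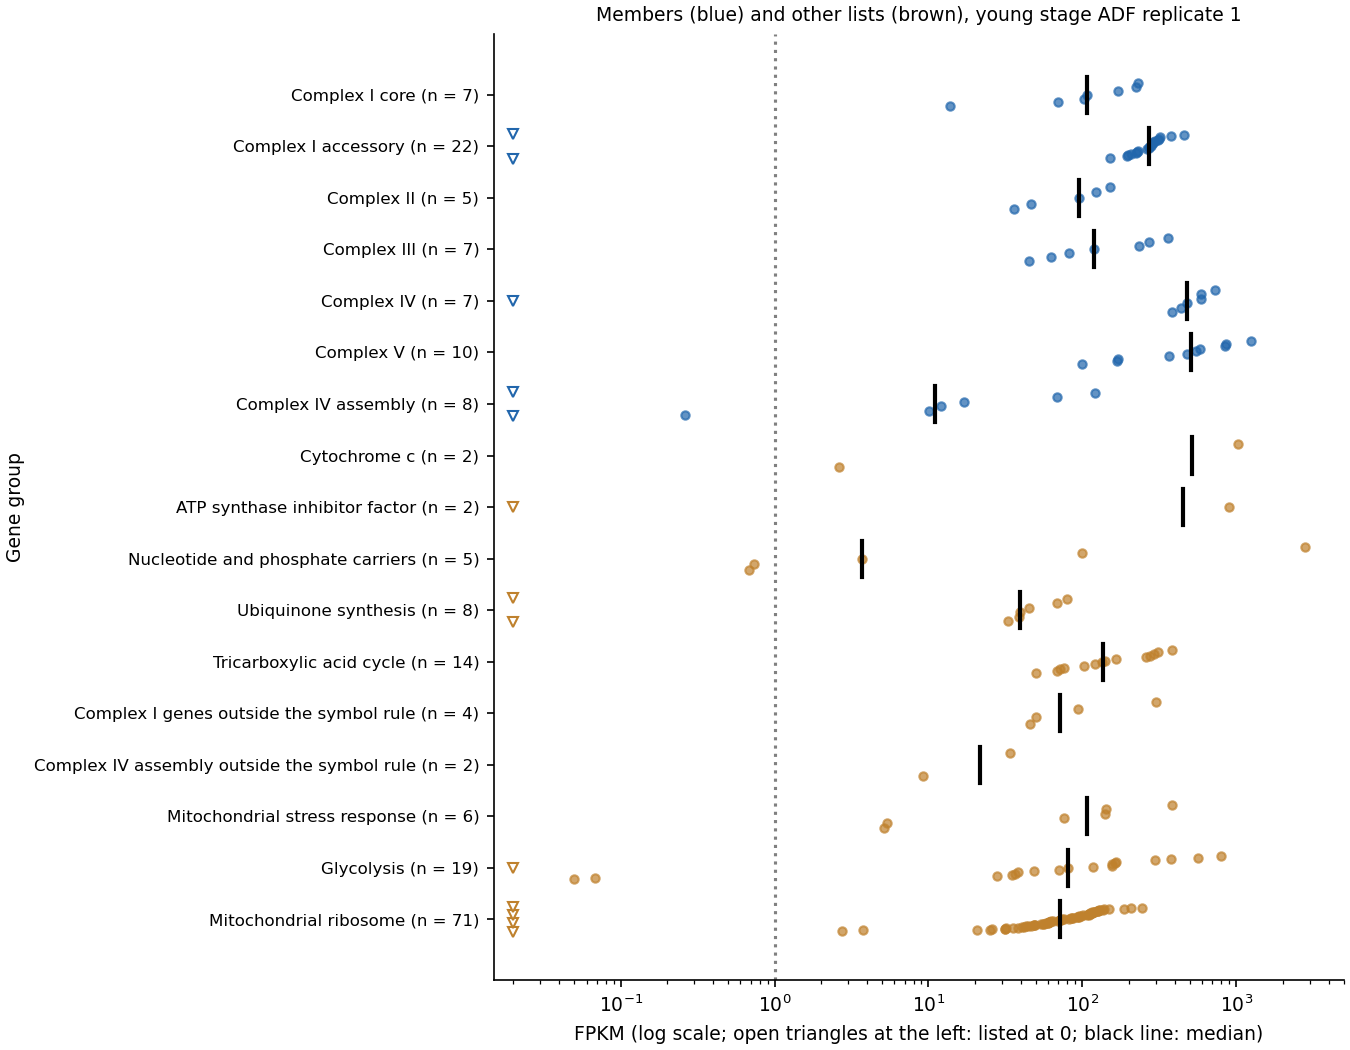
FPKM (log axis) of the genes of each complex (blue, upper rows) and of the other lists (brown), with black lines for medians, a dotted line at 1 FPKM and open triangles at the left for genes listed at 0. Subunits of complexes IV and V have medians of 480 and 512 FPKM, and the tricarboxylic acid cycle, at 137 FPKM, and the mitochondrial ribosome, at 71.7 FPKM, have lower ones.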

How the data were processed

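RNA-seq values of 1 library were analysed, young stage ADF replicate 1. Per the methods, the authors aligned reads to WBcel235 with HISAT2 and computed FPKM with Ballgown. The submitters' processing notes name Bowtie 0.12.2 and StringTie. The kit is named as KAPA Stranded in the methods and as Illumina TruSeq in the labels, so the use of strand is not settled, and 13 members share exon bases with a gene on the other strand. The deposited FPKM table holds 45519 entries. Left out were 24 entries that name the mitochondrial genome (0.103% of all FPKM). Mitochondrially encoded subunits and 8 of the 9 libraries were not analysed here, and groups were not compared.

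Gene numbers were matched to RefSeq symbols of WBcel235 (44752 of 45495) and, by symbol or sequence name and overlapping position, to Ensembl release 115, where all 66 members were placed. The library total was the value at which FPKM times annotated length became whole fragments. For each gene, all lengths from 20 to 60000 bases were tried, and the one giving a whole number and lying closest to the annotation was kept. Within 1.2 times the annotated length, more than 1 length was possible for 8 members. Lengths outside this window were not counted, and a multiple of a kept length, with its fragments multiplied alike, also gives a whole number. For members whose kept length lies outside this window, the fragments rest on the choice of the closest length. Fragments recovered for all genes add up to 18717988, above the total of 18205113, and what that total counts is not stated.

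Named genes are the highest and lowest of each complex, those under 1 FPKM, those with known lifespan, stress or germline phenotypes, genes of the same subunit, and assembly factors. The *nduv-2* and *nduc-2* values and the genes named for their lengths were chosen after values were seen. Protein identity between members was not computed. The members and lists were chosen with earlier results of these data known. Markers of 9 cell types were read as a check of the label. Intestine (5.97 to 1228 FPKM), neuron (5.40 to 339), body wall muscle (8.54 and 46.4), pharynx (1.95) and gonad sheath markers (2.08) exceeded 1 FPKM, as did germline and oocyte markers and 2 of 3 hypodermis markers (0.811 to 8.45). The 3 sperm markers were all under 1 FPKM, with 0.245 at most. Tables were handled with pandas 2.3.3 and numpy 2.4.6 in Python 3.11.15, intervals came from scipy 1.17.1, and plots were drawn in matplotlib 3.10.9.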

Additional observations from a re-analysis of the deposited data

How the results depend on the processing

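No paired analysis was possible because values of 1 library were read, and for the same reason leaving out replicates and comparing groups with limma were not run. The number of genes detected was 60 at 1 FPKM and on the TPM scale, and 61 at any value above 0 or at 0.1. Of 55 alternative values, 25 stayed within the counting interval, within 1.5 times for a count or within 10% for an SD. The medians on the TPM scale are the FPKM medians times a constant, so they left the counting intervals by scale alone. The complex medians, in the order I to V, were 272, 112, 141, 570 and 608 on the TPM scale, and 142, 78.6, 130, 213 and 413 as geometric means of FPKM + 1, minus 1. At the annotated lengths, an alternative chosen after seeing the data, complex III moved to 233 FPKM and complex V to 491 FPKM, and the others stayed. Complex IV had a median of 533 FPKM without *cox-6B* and 68.5 FPKM with the assembly factors. The median percentile of 94.9 became 96.6 among all protein-coding genes above 0 and 89.2 by fragments.

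Without division by length, the ratios were 1.88 for *asb-1* over *asb-2*, 1.34 for *asg-1* over *asg-2*, 2.16 for *sdha-2* over *sdha-1* and 1.42 for *nduf-2.2* over *gas-1*. At the annotated length, *asg-1* over *asg-2* was 1.404, and the other ratios stayed within their intervals. No ratio changed direction. The SD of log2 values was 2.99 for complex I and 4.68 for complex IV with a pseudocount of 0.1, and 0.96 and 0.34 without genes at 0. With 1 value per subunit, also chosen after seeing the data, it was 0.77 for complex II, 0.97 for complex III and 0.85 for complex V, and for complex I 2.22, or 0.90 without genes at 0. For complex V it was 0.88 at the annotated lengths. Depth limits *cox-11*, on 7 fragments, and *cox-17*, on 70.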

Other observations

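The 66 genes were spread unevenly over the chromosomes. Chromosome I held 19 of them, or 28.8%, where 14.4% of protein-coding genes lie, and chromosome III held 15, or 22.7%, against 13.2%. Chromosome V held 6, or 9.09%, against 25.02%, and chromosome X also held 6, against 13.7%. Chromosomes II and IV held 11 and 9. The median of all protein-coding genes with at least 1 FPKM was 31.5 FPKM on chromosome I and 30.2 FPKM on chromosome III, above the 11.7 FPKM on chromosome V and the 8.21 FPKM on chromosome X. No test was made of these shares, since the genes of a family are not independent.

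Few members were neighbours. Within 20000 bases of each other lay *sdha-2* and *ndua-13*, 237 bases apart on the minus strand of chromosome I. *sdha-2*, a gene of complex II, had 94.7 FPKM and *ndua-13*, a gene of complex I, had 315 FPKM. Also near each other were *ndub-11* and *isp-1* on chromosome IV, with 225 and 272 FPKM and 3784 bases between them, and *cox-7C* and *cox-5B* on chromosome I, with 381 and 586 FPKM and 14996 bases between them. In each case the members lay on the same strand, and their counting intervals did not overlap.

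Across the 61 members above 0, FPKM and annotated exon length had a Spearman rho of -0.30. With the length behind the FPKM, rho over the same members was -0.44. Across the 11297 protein-coding genes with at least 1 FPKM and a length, a set with another threshold, rho with the annotated length was -0.02. The FPKM already holds a division by length, and genes are not replicates, so no p-value is given.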
